A study of Homo sapiens with 4 samples.

Results

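Each of 4 Agilent 2-colour arrays received a pair of RNAs labelled with Cy3 (green) and Cy5 (red), and here the channels were read apart, as single intensities. All 4 arrays of the series were used. Of the 41000 probes of the design, 26877 were well above background in both channels on all 4 arrays, and these were the probes compared. The question was which dye carried the RNA that the arrays have in common, and what that RNA expressed.

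HCT116 is an established line of human colon cancer cells. Clone #3-1 and clone #4-7 are HCT116 clones that stably carry N-BLR shRNA, a short hairpin RNA against the long noncoding RNA N-BLR, and each was hybridised on 2 arrays, replicate 1 and replicate 2. The partner on every array was RNA from the empty vector control, and the knockdown rests on these 2 clones. Only the labels name the dyes. On every array they put the N-BLR shRNA clone in Cy5 and the empty vector control in Cy3, with no dye swap. The labels describe lentivirus and the study's methods a transfected shRNA vector, and neither source gives a time. Arrays of 1 clone are biological replicates by the labels and duplicates by the methods. The p-values measure only the spread between these arrays, which may be technical.

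In a common-reference design where the reference RNA is the same tube on every array, its channel should differ between arrays by noise alone. The other channel carries the sample. Agilent reads each dye separately at every spot, which makes this comparison possible without a ratio. The study's methods do not say whether the empty vector RNA on the arrays was a single preparation. Epithelial colon cells are known for E-cadherin, claudins and keratins, and vimentin is the intermediate filament of mesenchymal cells. Immediate early genes such as FOS and EGR1 are known for rapid and short transcription after a stimulus.

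The labels and the data did not go together on this point. The Cy3 intensities, labelled as the empty vector on all arrays, differed between the arrays of clone #3-1 and those of clone #4-7, and the Cy5 intensities, labelled as the clones, stayed almost alike. By the rule that the common RNA sits in the channel that stays alike, Cy5 is the common RNA. From here the RNAs are therefore called by their dye and array. The software's slope of observed on stated log ratios of the spike-in controls was 0.919 to 0.931 on the 4 arrays, so these controls read in the stated direction. The slope covers the spike-ins only, and whether dyes or columns were exchanged for the RNAs was not tested.

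Cy3 was well above background at 68.5% to 71.8% of an array's probe spots, and Cy5 at 71.5% to 72.6%. The median background-subtracted intensity was 117 to 131 in Cy3 and 315 to 374 in Cy5. In Cy3 0 spots were saturated and in Cy5 7 to 25. All 4 arrays lie on 1 slide, and the position on it and the clone cannot be told apart. Clone #3-1 replicate 1 stood apart from the other 3 arrays in Cy5, and results that rest on it are given with and without it.

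The probes below are shown because the comparison of channels turns on them: 2 vimentin probes, a probe for the embryonic globin HBE1 and a probe for the matricellular protein CCN1. Each is 60 bases long, as the array's files give it, with positions in build hg17.

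VIM, A_23_P161190, chr10:17318353-17319262, plus strand: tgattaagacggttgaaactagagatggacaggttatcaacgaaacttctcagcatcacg
VIM, A_23_P161194, chr10:17317191-17317250, plus strand: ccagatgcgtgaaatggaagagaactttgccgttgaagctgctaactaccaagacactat
HBE1, A_24_P355568, chr11:5247438-5247619, minus strand: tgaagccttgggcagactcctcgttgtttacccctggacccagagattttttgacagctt
CCN1, A_24_P370946, chr1:85760465-85760524, plus strand: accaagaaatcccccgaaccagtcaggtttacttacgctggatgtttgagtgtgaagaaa

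The vimentin probe A_23_P161190 covers 910 bases of genome with its 60 bases and the HBE1 probe 182 bases, so both cross an exon junction, while the other vimentin probe and the CCN1 probe match 1 uninterrupted stretch.

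Arrays were first compared in pairs. In Cy3, 2 arrays of different clones differed by a median absolute log2 intensity of 0.263 to 0.291 over the 26877 probes (mean 0.278, n = 4 pairs). Arrays of the same clone differed in Cy3 by 0.0773 for clone #3-1 and 0.0513 for clone #4-7. Every pair across clones thus differed more than either pair within a clone. In Cy5, pairs across clones differed by 0.0564 to 0.108 (mean 0.0837, n = 4 pairs), and pairs within a clone by 0.0820 and 0.0552. The ranges overlapped in Cy5, and the pairs of clone #3-1 replicate 2 with the arrays of clone #4-7, at 0.0564 and 0.0672, lay below the pair of clone #3-1 with itself. The SD over probes of the log2 difference between 2 arrays of different clones was 0.541 to 0.582 in Cy3 and 0.143 to 0.264 in Cy5. With 2 arrays against 2, an exact permutation test over arrays cannot go below p = 0.333, and both channels gave that value.

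**Figure D1:**
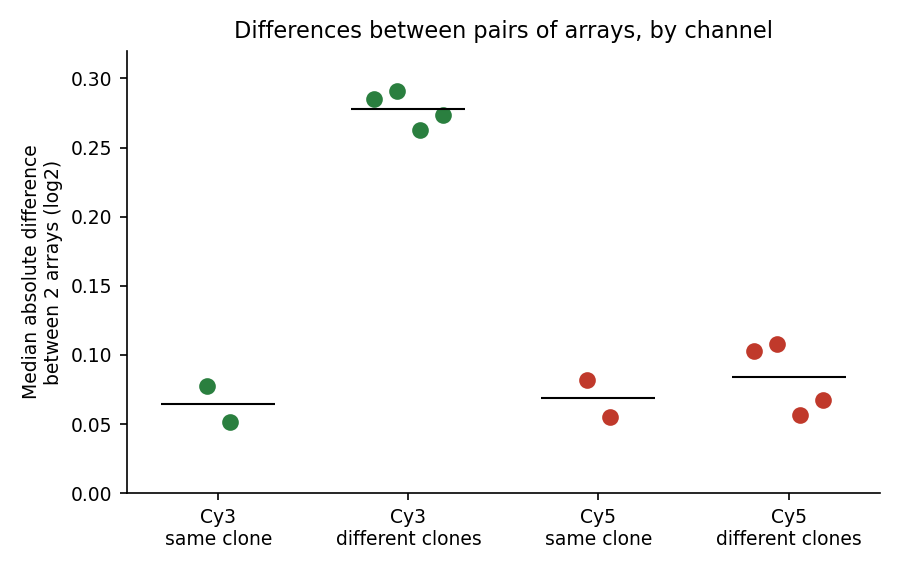
Median absolute log2 difference over 26877 probes for each pair of arrays (points), by channel and by whether the arrays belong to the same clone; lines are means. The 4 Cy3 pairs across clones sit between 0.263 and 0.291, above every other pair, and the Cy5 pairs across clones overlap the pairs within a clone.

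The same contrast was fitted probe by probe with limma, as arrays of clone #3-1 minus arrays of clone #4-7 in each channel alone, with an unadjusted p threshold of 0.001. In Cy3, 6904 of 26877 probes passed (25.7%), 3676 higher and 3228 lower on the arrays of clone #3-1. In Cy5, 44 passed (0.164%), 18 higher and 26 lower. With a difference of at least 2-fold as well, 1524 probes passed in Cy3 (5.67%) and 3 in Cy5 (0.0112%). The 3 were FOSB, the unnamed probe A_24_P75994 and the transcript AI431972. After Benjamini-Hochberg adjustment at 0.05, limma called 15571 probes in Cy3 and 0 in Cy5, where 2259 had an unadjusted p under 0.05 and the smallest adjusted p was 0.196. The median absolute clone difference was 0.271 on the log2 scale in Cy3 and 0.0710 in Cy5, a ratio of 3.82. The Cy3 count fell when an array was left out, to 4225 without clone #3-1 replicate 1, 4696 without its replicate 2, and 2613 and 2415 without replicate 1 and replicate 2 of clone #4-7. Without clone #3-1 replicate 1, Cy5 had 73 calls, 22 of them 2-fold, and the ratio was 4.77. Where replicate 1 stood alone for clone #3-1, Cy5 had 565 calls, 213 of them 2-fold, and the ratio was 2.81.

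The log2 ratio of Cy5 over Cy3 differed at least 2-fold between the clones for 1443 probes. Of these, 1430 (99.1%) had the larger clone difference in Cy3 and 13 in Cy5. At a ratio difference of at least 4-fold, all 183 probes had the larger clone difference in Cy3, with medians of 2.58 in Cy3 and 0.111 in Cy5 (absolute log2 difference). At 8-fold or more, the count was 40 of 40. At these probes the clone difference of the ratio lay mostly in Cy3. The counts use the same clone differences as the fits above, whose SD over probes was 3.28 times as large in Cy3 as in Cy5. They describe that contrast again and are not separate evidence. Over the 26877 probes, which share arrays and depth, the clone differences in the channels had a Pearson r of 0.328, given as a description. Of the 44 probes called in Cy5, 36 were also called in Cy3, where 25.7% of all probes were, and 32 of the 36 had the same sign. Of 818 probes at least 2-fold higher in Cy3 on the arrays of clone #3-1, 667 (81.5%) had the same sign in Cy5. Of 823 at least 2-fold lower, 528 (64.2%) did. The median Cy5 differences were small, 0.087 and -0.043. The cause of this shared direction was not tested.

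**Figure D2:**
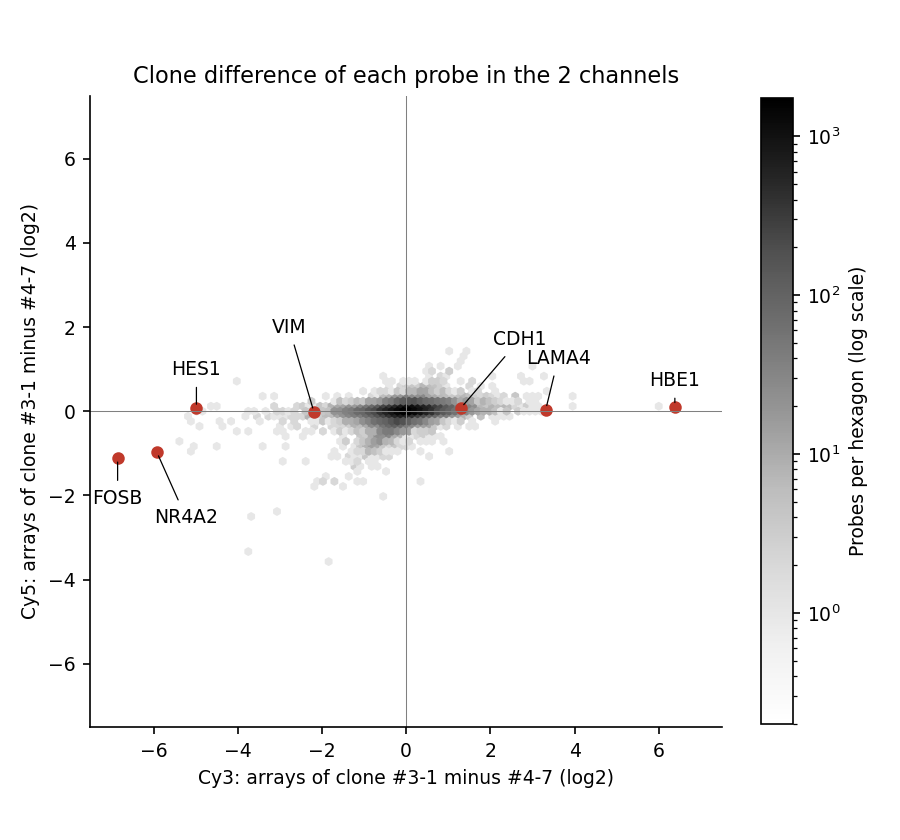
Clone difference of each of 26877 probes, with Cy3 on the horizontal and Cy5 on the vertical axis, both as arrays of clone #3-1 minus clone #4-7 on the log2 scale and drawn to the same scale; shading is the number of probes on a log scale and red points are named genes. The probes spread along Cy3, where HBE1 lies at 6.38 and FOSB at -6.85, and most stay close to 0 in Cy5. Single probes reach further in Cy5, such as ITPR3 at -3.56, which was low in both dyes on clone #3-1 replicate 1.

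Spike-in controls, synthetic RNAs added to each sample and not made by the cells, were read against the median probe of each array and channel, so their values are relative to the cellular signal. In Cy3, the 10 spike-ins were higher on the arrays of clone #3-1 by 0.18 to 0.51, with a median absolute difference of 0.432. In Cy5 the same spike-ins differed by -0.19 to 0.16, with a median absolute difference of 0.0711. All 10 shifted the same way in Cy3, and in Cy5 they lay on both sides of 0. The part of this shift in the Cy3 results was not tested. Quantile normalization acts on the probes and not on the spike-ins.

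**Figure D3:**
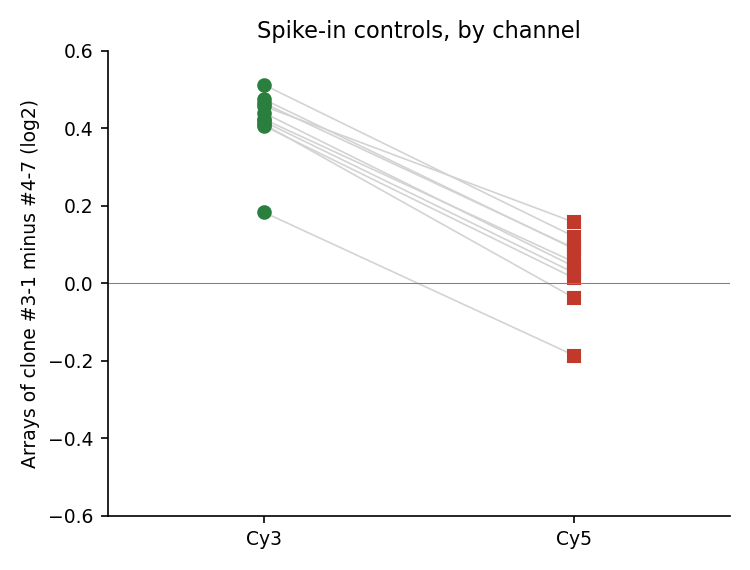
Difference of 10 spike-in controls between the arrays of clone #3-1 and clone #4-7, on the log2 scale after centring on the array's median probe; each grey line joins a spike-in in Cy3 and Cy5. All 10 lie between 0.18 and 0.51 in Cy3 and between -0.19 and 0.16 in Cy5.

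Detection gave the same picture without a fit. In Cy3, 833 probes were well above background on both arrays of 1 clone and on neither of the other, 646 of them on for clone #3-1 and 187 on for clone #4-7. In Cy5 there were 172 such probes, 70 and 102. Of the 833 probes that switched in Cy3, 323 were on in Cy5 on all 4 arrays, whereas 17 of the 172 that switched in Cy5 were on in Cy3 on all 4.

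Named genes show how the channels differed. HBE1, epsilon globin, which is normally made by embryonic red cells, had the largest rise in Cy3. Its Cy3 log2 intensity was 12.65 and 12.60 on the arrays of clone #3-1 and 6.22 and 6.27 on those of clone #4-7. In Cy5 it was 12.91, 12.90, 12.75 and 12.84 in the same order of arrays. The Cy3 groups were far apart, a difference of 6.38 ± 0.05 (SE, limma's adjusted p = 4.6e-05, 83.4-fold), and all 4 Cy5 values lay together, with a difference of 0.11 ± 0.06 (limma's adjusted p = 0.55). Both HBE1 probes showed this, with Cy3 differences of 6.02 and 6.38.

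LAMA4, a laminin chain of the basement membrane, ran the same way. Its Cy3 values were 11.49 and 11.47 for clone #3-1 and 8.18 and 8.16 for clone #4-7, and its Cy5 values were 12.81, 12.76, 12.81 and 12.68. The Cy3 difference was 3.32 ± 0.04 (SE) and the Cy5 difference 0.04 ± 0.07 (SE). Among the other genes with large Cy3 differences in this direction were C1orf116 at 3.96 and BDKRB1, the inducible bradykinin receptor, at 3.38. In Cy5 these differed by 0.37 and 0.43, and BDKRB1's other probe was called in Cy5 at 0.80.

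The largest Cy3 differences in the other direction were those of FOSB, NR4A2, FOS, CCN1 and MT1E. FOSB, a subunit of the transcription factor AP-1, had Cy3 values of 7.02 and 6.81 on the arrays of clone #3-1 and 13.76 and 13.79 on those of clone #4-7. Its Cy5 values were 9.07 and 9.03 against 10.19 and 10.12. FOSB therefore differed in both channels in the same direction, by -6.85 ± 0.08 (SE) in Cy3 and by -1.11 ± 0.05 (SE) in Cy5. The Cy5 difference passed the unadjusted threshold and not the adjusted one (limma's adjusted p = 0.20).

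NR4A2, an orphan nuclear receptor, followed FOSB, with differences of -5.92 in Cy3 and -0.97 in Cy5. FOS, the AP-1 partner of JUN, had Cy3 values of 9.41 and 9.40 against 14.81 and 14.82, and Cy5 values of 11.26 and 11.34 against 12.05 and 12.06. Its differences were -5.41 in Cy3 and -0.75 in Cy5, with no overlap of the clones in either channel. The NR4A2 and FOS calls in Cy5 did not hold in every fit that left out an array. Without clone #4-7 replicate 1 both missed the threshold, with differences of -0.94 for NR4A2 and -0.76 for FOS, and without replicate 2 of that clone FOS missed it again, at -0.75.

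CCN1, whose probe is printed above, had Cy3 values of 8.39 and 8.46 against 13.60 and 13.59, and Cy5 values of 10.91 and 10.89 against 11.88 and 11.91. The differences were -5.17 and -0.99. Another CCN1 probe, A_23_P46426, gave -5.17 in Cy3 as well but -0.06 in Cy5 (limma's adjusted p = 0.75). The 3 CCN1 probes measured ran from -0.99 to -0.06 in Cy5 and so disagreed there. HES1, a repressor downstream of Notch, had Cy3 values of 9.62 and 9.52 against 14.55 and 14.55, and Cy5 values of 13.02, 12.79, 12.86 and 12.83. Its differences were -4.98 in Cy3 and 0.07 in Cy5, where the clones overlapped. The other HES1 probe gave -4.87 in Cy3 and -0.39 in Cy5. MT1E, a metallothionein, differed by -5.11 in Cy3 on 1 probe and by -0.76 on its other probe, and by -0.26 and -0.04 in Cy5. GPR183, an oxysterol receptor, differed by -4.87 and 0.05, the zinc finger factor EGR2 by -4.65 and 0.06, and the matricellular protein CCN2 by -4.47 and 0.12.

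In Cy5 the genes with the largest differences past the threshold were few and mostly small. Higher on the arrays of clone #3-1 were the probe named TMEFF2 (0.98), which the files place on the mitochondrial genome and not at that gene, C2CD4B (0.89), BDKRB1 (0.80), the serine protease PRSS22 (0.78) and the leukotriene enzyme ALOX5 (0.75). Lower were FOSB, CCN1, NR4A2, NR4A1 (-0.88) and SAMD11 (-0.83). All 10 moved the same way in Cy3, and for all but the TMEFF2 and C2CD4B probes the Cy3 difference was the larger. Several larger Cy5 differences without a call rested on clone #3-1 replicate 1 alone. ITPR3, an inositol trisphosphate receptor, had Cy5 values of 6.58, 13.86, 13.80 and 13.76, and the fatty acid desaturase FADS1 8.88, 13.66, 13.66 and 13.65. Both were low on that array in Cy3 too. ITPR3 had Cy3 values of 7.61, 12.11, 11.72 and 11.61, and FADS1 6.22, 12.29, 12.36 and 12.34.

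E-cadherin and vimentin show both channels at once. The E-cadherin gene CDH1 had Cy3 values of 10.69 and 10.55 on the arrays of clone #3-1 and 9.30 and 9.33 on those of clone #4-7. Its Cy5 values were 9.48, 9.33, 9.30 and 9.35. The Cy3 difference was 1.30 ± 0.06 (SE, limma's adjusted p = 4.6e-04) and the Cy5 difference 0.08 ± 0.07 (SE).

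Vimentin's probe A_23_P161190 had Cy3 values of 8.69 and 8.71 against 10.89 and 10.90, and Cy5 values of 15.03, 15.01, 15.04 and 15.04. The Cy5 values lay together on the 4 arrays, while Cy3 differed by -2.19 ± 0.04 (SE). The other vimentin probe gave -1.78 in Cy3 and 0.04 in Cy5. MKI67, a marker of cycling cells, had Cy3 values of 8.08 and 8.06 against 9.31 and 9.26, and Cy5 values of 10.19, 10.22, 10.32 and 10.23. EPCAM and the keratins KRT8 and KRT18 were closer in Cy3, with differences of 0.46, -0.35 and -0.14 on their brightest probes, and none of these passed the threshold in either channel.

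**Figure D4:**
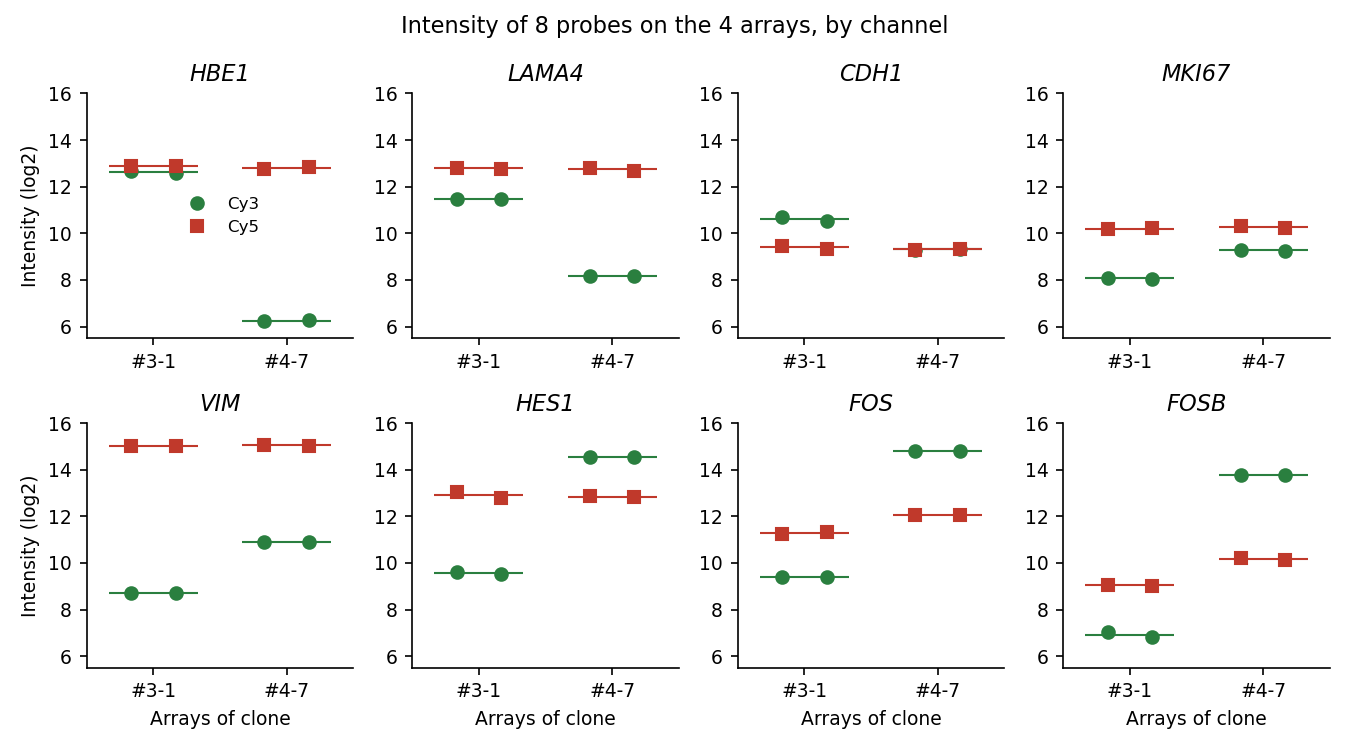
Normalized log2 intensity of 8 probes on the arrays of clone #3-1 and clone #4-7, in Cy3 (green circles) and Cy5 (red squares), with 2 arrays per clone and lines for their means; intensities of different probes or dyes are not on a common scale. Cy5 stays level for HBE1, LAMA4, CDH1, MKI67, VIM and HES1 and is higher on the arrays of clone #4-7 for FOS and FOSB; for CDH1 on the arrays of clone #4-7 the Cy3 points lie behind the Cy5 points.

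Gene lists were described in the same way, each gene by its brightest probe. The list of epithelial junctions and keratins had 33 members measured in both channels on all arrays. In Cy3, 24 of 33 were called higher on the arrays of clone #3-1 and 0 lower, against 25.7% of all probes called in either direction. In Cy5, 1 of 33 was called, PRSS8, a membrane-anchored serine protease, at 0.47, against 0.164% of all probes. The list's median difference was 0.60 in Cy3 and 0.07 in Cy5, beside medians over all probes of 0.0029 and 0.020. The largest in Cy3 were PRSS8 (2.10), the membrane traffic protein MAL2 (1.86) and the clathrin adaptor AP1M2 (1.70). Over 7 scalings and background corrections the Cy3 calls ran from 23 to 28, all higher. Without clone #3-1 replicate 1, 17 were called in Cy3, all higher, and 0 in Cy5, where loess scaling also gave 0.

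Of 21 immediate early genes measured, 17 were called lower in Cy3 on the arrays of clone #3-1 and 0 higher, with a median difference of -3.47. Over all probes, 25.7% were called in Cy3 in either direction. In Cy5, 5 of 21 were called, against 0.164% of all probes. They were FOS, FOSB, JUN (-0.51), NR4A1 and CCN1, all lower, while the list's Cy5 median was 0.02. CCN1 stands in this list by a brighter probe than the printed one, and its probes disagreed in Cy5. EGR1 showed the contrast between channels, with -3.47 in Cy3 and 0.32 in Cy5, the latter not called. The members not called in Cy3 were FOSL1, FOSL2, JUND and MYC. Under 7 scalings the Cy3 calls lower ran from 17 to 19, those higher from 0 to 1, and the Cy5 calls from 4 to 6. Without clone #3-1 replicate 1 there were again 17 calls in Cy3 and 5 in Cy5, of 22 measured.

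Of 30 cell cycle genes, 12 were called lower in Cy3 on the arrays of clone #3-1 and 0 higher. The share of all probes called in Cy3 in either direction was 25.7%. In Cy5, 0 of 30 were called, near the 0.164% of all probes. The median difference was -0.32 in Cy3 and 0.05 in Cy5. The replication helicase genes MCM2 (-0.75), MCM3 (-0.74) and MCM7 (-0.47) and the replication clamp PCNA (-0.50) were among those called, and cyclins CCNB1, CCNB2, CCNE1 and CCND1 were not. Without clone #3-1 replicate 1, 6 were called lower in Cy3.

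In the next lists, 0 members were called in Cy5, near the 0.164% of all probes. Their Cy3 counts stand beside 25.7% of all probes called in either direction. Of 15 mesenchymal markers and EMT factors, 4 were called higher and 4 lower, and the list's median Cy3 difference was 0.03. The list thus had no common direction. Among the lower were VIM, the calcium-binding protein S100A4 (-3.10) and SNAI1 (-0.55), and the 4 higher are not named here. Heat shock proteins had 3 calls higher and 6 lower of 19, with HSPH1 at -1.18. Interferon-stimulated genes had 4 and 2 of 22 and p53 targets 3 and 2 of 20, with CDKN1A at 1.45, shares near that of all probes. Wnt targets had 3 and 3 of 11, with AXIN2 at -3.25. Colon epithelial identity had 1 call, KLF5, lower at -0.56, of 10. Without clone #3-1 replicate 1 the mesenchymal list had 2 higher and 4 lower, the heat shock list 1 and 4, the interferon list 1 and 2, the p53 list 4 and 0, and the Wnt list 3 and 2.

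**Figure D5:**
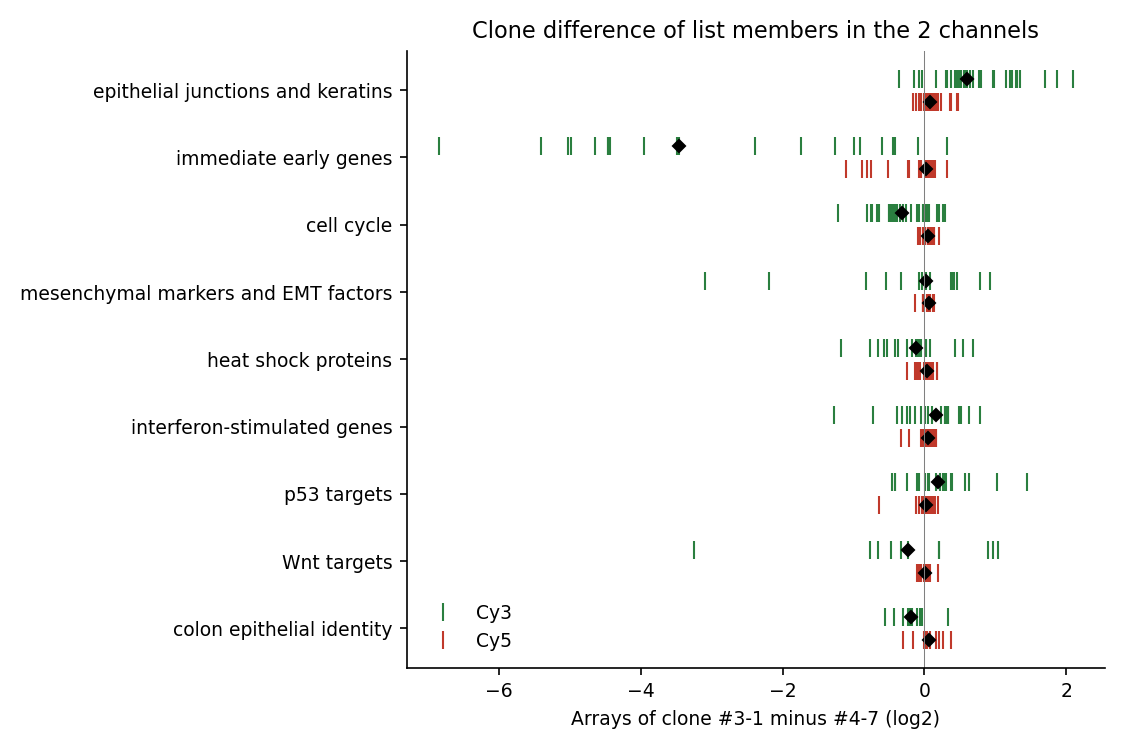
Clone difference (arrays of clone #3-1 minus clone #4-7, log2) of the members of 9 gene lists in Cy3 (green) and Cy5 (red); each tick is a gene and black diamonds are medians. Epithelial genes lie to the right and immediate early genes to the left in Cy3, with medians of 0.60 and -3.47, and Cy5 medians lie between 0.01 and 0.07.

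Members at background in Cy3 on the arrays of 1 clone have a bound only. SPARC, a secreted matrix glycoprotein, had background-subtracted Cy3 intensities of 15.8 and 14.4 on the arrays of clone #3-1, not well above background, and of 1419 and 1418 on those of clone #4-7. Cy5 read 194, 236, 296 and 333 there. SPARC was at least 22.8-fold higher in Cy3 on the arrays of clone #4-7. ZEB1, a repressor of E-cadherin, read 15.5 and 24.7 against 69.6 and 62.7 in Cy3 and 120, 145, 147 and 172 in Cy5. ZEB1 was at least 1.58-fold higher in Cy3 on the arrays of clone #4-7. SPARC and ZEB1 were taken here because they were detected in Cy3 on the arrays of clone #4-7 only. Their bounds are therefore a description and no test of the clone difference.

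The Cy5 RNA was then described by itself. Of 41000 probes, 28147 (68.7%) were well above background in Cy5 on all 4 arrays, 2344 on 1 to 3 and 10509 on none. All 22 immediate early genes, all 30 cell cycle genes, all 20 p53 targets and the 19 heat shock genes on the array were detected on all 4. Of 35 epithelial junction genes and keratins, 33 were detected and 2 were on none, KRT7 and GRHL2. GRHL2, a regulator of epithelial genes, was well above background in Cy3 on all 4 arrays, at 147, 178, 28.2 and 32.6, and read between 21.0 and 34.4 in Cy5.

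Markers of colon epithelium were divided in Cy5. Over all probes, 68.7% were detected in Cy5 on all 4 arrays, so a count of detected markers says little by itself about the cells. Of 19 colon epithelial identity genes on the array, 11 were detected in Cy5 on all 4 arrays, among them the homeobox factor CDX2, KLF5, HNF4A and KRT20. The other 8 were on none, CDX1, VIL1, CDH17, CEACAM5, CEACAM6, FABP1, MUC13 and SLC26A3. CDX2 read 380, 402, 425 and 418 in Cy5, while VIL1, the brush-border villin, read 42.8, 18.7, 35.2 and 22.3.

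Of 25 mesenchymal genes, 18 were detected in Cy5 on all 4 arrays, near the 68.7% of all probes. VIM, ZEB1, SNAI1 and SPARC were among them, and CDH2, ZEB2, TWIST2, MMP2, LOX, CDH11 and TGFBI were on none. Markers of other cells were divided, and the same share of all probes stands beside their counts. In Cy5 on all arrays there were 6 of 13 leukocyte, 1 of 8 endothelial, 2 of 9 fibroblast, 7 of 11 erythroid and 4 of 10 liver and neuron markers. On none were 6 leukocyte, 6 endothelial, 6 fibroblast, 2 erythroid and 5 liver and neuron markers. The genes PTPRC, PECAM1, LUM, HBB and APOA1 were among these. The summed intensity of the erythroid list was 12143 to 13810 in Cy5, 7729 to 7769 in Cy3 of clone #3-1 and 1041 to 1079 in Cy3 of clone #4-7, and HBE1 made up most of the Cy3 change. HBG1, a fetal globin whose near-identical copy HBG2 can share its probe, read 1160 and 1174 in Cy3 for clone #3-1, 32.1 and 31.6 for clone #4-7, and 2126, 2208, 2199 and 2326 in Cy5. In Cy3 the 1 fibroblast marker measured in both channels was called lower on the arrays of clone #3-1, COL1A1 at -0.81, and so were both liver and neuron markers, SERPINA1 at -1.34 and SYT1 at -1.18. The leukocyte list held 1 Cy3 call in each direction and 1 Cy5 call, CSF1R, the macrophage colony-stimulating factor receptor (2.88 in Cy3, 0.69 in Cy5), whose Cy5 call was lost without clone #3-1 replicate 1. The leukocyte list's Cy5 call was also lost with loess, with normexp, without background subtraction and with the processed intensities. The part of other cells in these results was not tested.

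Cy5 was last set against Cy3 within arrays, with limma on the log2 ratio. Read by the labels, the direction of Cy5 over Cy3 for E-cadherin and vimentin is opposite to the one the study's text gives for the clones. Read with Cy5 as the empty vector RNA, the direction is the same as in the study's text. The study also reports qRT-PCR and immunofluorescence for both genes, which were not examined here. Which reading holds was not tested. On the arrays of clone #3-1, 6639 of 40940 probes were higher in Cy5 (16.2%) and 6702 lower (16.4%). On those of clone #4-7, 6564 were higher (16%) and 6132 lower (15%). The comparisons share no array, but both hold the same Cy5 RNA if Cy5 is common. Calls on the arrays of both clones are therefore not independent, and the counts of them below are a description. Dye and RNA cannot be told apart in any of these ratios, since no array has the dyes exchanged.

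Vimentin (A_23_P161190) had a log2 ratio of 4.45 on the arrays of clone #3-1 and 2.38 on those of clone #4-7 (limma's adjusted p = 3.9e-06 and 4.9e-06). CDH1 had -2.60 and -1.35 (limma's adjusted p = 5.8e-06 and 1.6e-05). Of all 40940 probes, 3181 were called higher in Cy5 on the arrays of both clones (7.77%) and 3129 lower (7.64%). Of the 35 epithelial genes, 20 were lower in Cy5 on both, led by MAL2 (-4.18 and -2.28) and TMC4 (-2.91 and -2.13), and DSC2, a desmosomal cadherin, was higher (0.23 and 0.76). Of 30 cell cycle genes, 22 were higher in Cy5 on both and 0 lower, with TYMS, the enzyme of thymidylate synthesis, at 1.22 and 0.84. Of 19 heat shock genes, 10 were higher and 0 lower on both, with HSPA1A at 1.30 and 0.87.

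Of 25 mesenchymal genes, 2 were higher in Cy5 on the arrays of both clones, VIM and the receptor AXL (0.41 and 0.76), and 5 were lower, S100A4 leading (-0.64 and -3.64). Wnt targets had 4 higher on both, among them the transcription factor SP5 (1.82 and 1.20) and the ubiquitin ligase RNF43 (1.80 and 1.19), and 1 lower, CD44 (-1.24 and -0.21). Interferon genes had 2 higher, among them IRF7, and 7 lower, with OASL at -1.45 and -0.98. The p53 targets had 1 higher, FAS, and 6 lower, with BTG2 at -0.77 and -1.25. Colon identity had 2 higher, among them HNF4A (0.25 and 0.26), and 0 lower. The immediate early genes had 5 lower on both and 0 higher, but the clones differed. On the arrays of clone #3-1, 9 of 22 were higher in Cy5 and 5 lower. On those of clone #4-7, 1 was higher and 21 were lower, where 15% of all probes were lower.

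Some genes were detected in 1 dye alone. On all 4 arrays, 135 probes (57 genes) were well above background in Cy5 and on none in Cy3, and 64 probes (42 genes) were the reverse. CSMD3, a large membrane protein, was at least 5.95-fold higher in Cy5, with intensities of 860, 828, 906 and 920. DCLK1, a microtubule-associated kinase, was at least 3.01-fold higher, and RUBCNL, SLN and TRIM49 followed with bounds of 1.31 to 1.46. In Cy3 alone, the zinc finger gene ZNF502 was at least 5.88-fold higher, the meiosis gene SPATA22 at least 4.96-fold and the glycosyltransferase GALNT3 at least 4.28-fold, with ZNF550 and FXYD3 at 4.20 and 4.18. The Cy3 intensity of FXYD3, a regulator of the sodium pump, was 387 and 406 on the arrays of clone #3-1 and 83.7 and 83.4 on those of clone #4-7, with no overlap of the clones. These bounds are open to dye bias.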

How the data were processed

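The authors deposited spot and local background intensities of both channels from Agilent Feature Extraction, without normalization; per the file headers the version was 9.5.3.1, with positions on hg17. The same deposited files hold processed intensities, flags and the log10 ratio of Cy5 over Cy3, of which the first and last served as alternatives. The authors' table of ratios was not used here. With R 4.3.3 and limma 3.58.1, the median local background was subtracted from the mean intensity, outlier-flagged spots were dropped, spots of a probe were averaged on the log2 scale, and each channel was quantile normalized over the 4 arrays. Probes had to be well above background in both channels on all 4 arrays. limma tested clone #3-1 minus clone #4-7 in each channel at an unadjusted p of 0.001, the study's threshold. Adjusted p-values are Benjamini-Hochberg over all probes fitted. Ratios used normexp (offset 50), loess within and quantiles between arrays. Bounds (at least N-fold) were taken after loess and Aquantile, from the mean of the bright side over that of the dim side, where each dim array counted as its own signal or as the dimmest detected probe, whichever was higher. A current symbol was matched to 23845 of 41000 probes through RefSeq accessions. Each list gene stands as its brightest probe. The text names the 5 genes per channel and direction with the largest called clone difference, the 10 with the largest ratio difference, 9 fixed genes, and list members by ratio; others were named after their values were seen. A few genes that this rule names are not reported here. Members and lists were chosen with earlier results of these data known. The scripts were tested on simulated data. The number of arrays limits the precision.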

Additional observations from a re-analysis of the deposited data

Results flagged for a closer look

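For 10 genes the log2 ratio of Cy5 over Cy3 lay on opposite sides of 0 on the arrays of the clones, and limma's test of the difference between the clones passed for each. HBE1 averaged -1.46 on the arrays of clone #3-1 and 4.34 on those of clone #4-7, a difference of -5.80 (limma's adjusted p = 2.3e-05). The other 9 ran the opposite way, positive on the arrays of clone #3-1 and negative on those of clone #4-7. FOSB differed by 5.62, CCN1 (probe A_23_P46426) by 5.20, HES1 by 5.06, FOS by 4.72 and NR4A2 by 4.45. MT1E differed by 4.30, EGR2 by 4.09, CCN2 by 3.50 and GPR183 by 3.48 (limma's adjusted p of the 9 between 1.1e-05 and 1.2e-05). The genes were chosen for a large ratio difference, so these values are a description. No group held enough arrays for a check of single arrays against the rest.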

How the results depend on the processing

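Cy3 kept the larger median clone difference under every alternative that gave this value, with a ratio to Cy5 from 2.10 (all probes, no filter) to 4.77. Of the recomputed values, 408 stayed on their side of the threshold or moved little, 49 moved and 3 lost a call. No called value changed sign, and 4 uncalled Cy5 differences near 0 did: CDH1 (-0.04) and VIM (0.03) with loess, HES1 (-0.05) without clone #3-1 replicate 1 and LAMA4 (-0.02) without clone #4-7 replicate 2. The Cy3 count of 2-fold calls was 990 with loess and Aquantile, 919 with normexp, 925 without background subtraction, 973 with all probes and 997 in 1 fit of both channels, and that of Cy5 was 0 in each except without background subtraction. The Cy3 median was 0.220 with loess, 0.212 with normexp, 0.211 without background subtraction, 0.287 with the processed intensities and 0.134 with all probes. The probes with a 2-fold ratio difference numbered 832 with normexp, 831 without background subtraction and 877 with all probes. Adjusted p-values gave 15571 calls in Cy3 and 0 in Cy5. Replicate numbers did not pair the arrays: replicate differences of the clones correlated at 0.0062 in Cy3 and 0.059 in Cy5, and a replicate block gave 4117 Cy3 calls. In ratios, plain subtraction gave 3310 higher and 3354 lower calls for clone #3-1 and 2984 and 3074 for clone #4-7, and the software's log ratios 4315 lower for clone #3-1 and 4212 higher for clone #4-7. Leaving out an array, where the lone array of a clone is assumed to vary like the others, gave 2415 to 4696 calls in Cy3 and 17 to 565 in Cy5, and 2-fold calls of 1445 to 1685 and 11 to 213. Medians then ran from 0.263 to 0.283 in Cy3 and 0.0550 to 0.101 in Cy5, their ratio from 2.81 to 4.77, the share larger in Cy3 from 98.2% to 99.4% and its probes from 1450 to 1501. Ratio calls ran from 3851 to 5324 (clone #3-1, higher), 4039 to 5411 (lower), 3132 to 5674 (clone #4-7, higher) and 3251 to 5461 (lower). With no p threshold, a choice made after seeing the data, 1641 probes were 2-fold apart in Cy3 and 60 in Cy5, and 1589 and 33 without clone #3-1 replicate 1. The cause of these shifts was not tested.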
